A study of Mus musculus with 8 samples.

Results

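The zinc-dependent histone deacetylases other than Hdac3 were followed in a mouse epicardial cell line in which Hdac3 had been targeted. Members were the genes whose symbol in the deposited tables was Hdac1, Hdac2, Hdac4, Hdac5, Hdac6, Hdac7, Hdac8, Hdac9, Hdac10 or Hdac11, which are 10 of the 35275 genes listed. Messenger RNA was sequenced from total RNA extracted with Trizol. Of the 8 libraries, 4 (EV) held RNA of cells transduced with empty-vector lentivirus and 4 (KO) of cells given lentiviral CRISPR/Cas9 with a guide against Hdac3, and all were grown in high-glucose DMEM with fetal bovine serum. The labels do not say whether KO cells were a pool or a clone, nor whether replicates were separate cultures, so p-values measure only the spread between these libraries, which may be technical. For KO replicate 1 the labels conflict: KO by title, empty vector by characteristics. Libraries were grouped by title, and the same 3 members were called without it (values below).

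Zinc-dependent deacetylases remove acetyl groups from lysines of histones and other proteins, and they fall into classes by sequence. Class I enzymes are mainly nuclear: Hdac1 and Hdac2 are the catalytic subunits of the Sin3, NuRD, CoREST and MiDAC complexes, and Hdac8 deacetylates the cohesin subunit Smc3. Class IIa enzymes (Hdac4, Hdac5, Hdac7, Hdac9) have little deacetylase activity of their own, bind MEF2 transcription factors and the NCoR complex that holds Hdac3, and leave the nucleus when kinases create docking sites for 14-3-3 proteins. Class IIb holds Hdac6, a cytoplasmic deacetylase of tubulin and cortactin with a ubiquitin-binding domain, and Hdac10, a polyamine deacetylase. Hdac11, the class IV enzyme, removes fatty acyl groups. The comparison of KO with EV asks whether transcripts of these enzymes differ, class by class, when Hdac3 is targeted.

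Transcripts of 3 members were higher in KO, namely class IIa Hdac7 and Hdac4 and class IIb Hdac6, by 14.1 to 20.7%. None of the class I members, nor class IIa Hdac5 or class IV Hdac11, passed the test, and Hdac9 was too low to test. The count of 3 higher and 0 lower among 9 tested members was read from edgeR's quasi-likelihood test over 12801 genes with Benjamini-Hochberg adjustment and a threshold of 0.05. That is 33.3% of the tested members, against 26.0% of all tested genes called in either direction, 12.6% higher and 13.4% lower, so the share of members called lay near the background. Of the 9, 0 were lower at an unadjusted p under 0.05 in edgeR, and 0 were called lower by DESeq2 or limma-voom. The median log2 fold change was 0.0058 over the 9 members and 0.0050 over all tested genes. In bulk RNA, fewer cells of a type and less RNA per cell cannot be told apart.

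Library totals ran from 18063745 to 24564892 counts, and 3 counts, the limit that a count of 0 allows, equalled 0.125 to 0.164 CPM (counts scaled to library size). The summed level of 12 epicardial markers was 4401 to 4656 CPM in EV and 4464 to 4590 in KO, but its members differed in both directions, 4 of 11 tested being higher and 3 lower in KO. Wt1 fell from 341 to 263 CPM (edgeR adjusted p = 3.17e-06), Tcf21 from 100.1 to 60.1 CPM (2.30e-06) and Upk3b from 1858 to 1465 CPM (7.62e-06), while Msln, Krt8, Krt18 and Krt19 rose. Summed cardiomyocyte markers were 145 to 158 CPM in EV and 113 to 130 in KO, mostly from Tnnt2, with Nppa at 0 in every library. Endothelial markers summed to 26.8 to 29.9 CPM in EV and 19.7 to 21.8 in KO, mostly from Kdr, with Pecam1 and Cdh5 at 0 to 6 counts. Of 3 tested, Kdr fell from 21.7 to 14.6 CPM (edgeR adjusted p = 1.32e-05) and Robo4 from 1.65 to 0.620 CPM (0.00171). Tek rose from 3.89 to 5.19 CPM (0.0298). Leukocyte markers summed to 6.52 to 7.78 CPM in EV and 9.93 to 11.3 in KO, with Ptprc at 0 or 1 count. Of 2 tested, Cd68 rose from 4.74 to 7.89 CPM (edgeR adjusted p = 0.000233) and Csf1r did not pass (0.0952). Liver genes, 25 in all, summed to 13.9 to 17.3 CPM in EV and to 22.7, 36.7, 37.0 and 17.9 CPM in KO replicates 1 to 4. Of the 25, 22 had a higher KO mean, and of 10 tested liver genes 5 were higher in KO and 1 lower. The lower 1 was Hp (6.74 to 4.40 CPM, edgeR adjusted p = 0.00174), unlike most of these liver genes. Their part in the results below was not tested. Hdac3 itself was at 61.9 ± 1.53 CPM in EV and 61.6 ± 3.23 in KO (SD, n = 4 each; edgeR adjusted p = 0.956), so its transcript level does not check the labels.

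Windows of 250 bases ahead of the start site are shown for the 3 members that rose and for Hdac2, a class I member that was not called. They come from RefSeq (GRCm38.p6), read 5′ to 3′ on the gene's strand, with capitals marking matches on either strand to any of 6 motifs. These were the GC box GGGCGG, the CCAAT box CCAAT, the ETS core CCGGAA, the E-box CACGTG, the AP-1 site TGANTCA and the nuclear receptor site AGGTCA. No base of the 4 windows lay in more than 1 match. Hdac7 is at chr15:97844503-97844752, Hdac6 at chrX:7947890-7948139 and Hdac4 at chr1:92180342-92180591, each on the minus strand, and Hdac2 at chr10:36974294-36974543 on the plus strand.
Hdac7: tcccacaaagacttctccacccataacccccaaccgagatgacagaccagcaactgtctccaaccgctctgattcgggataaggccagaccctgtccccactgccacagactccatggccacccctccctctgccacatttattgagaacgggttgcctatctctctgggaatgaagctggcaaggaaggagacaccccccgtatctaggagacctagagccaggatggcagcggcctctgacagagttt
Hdac6: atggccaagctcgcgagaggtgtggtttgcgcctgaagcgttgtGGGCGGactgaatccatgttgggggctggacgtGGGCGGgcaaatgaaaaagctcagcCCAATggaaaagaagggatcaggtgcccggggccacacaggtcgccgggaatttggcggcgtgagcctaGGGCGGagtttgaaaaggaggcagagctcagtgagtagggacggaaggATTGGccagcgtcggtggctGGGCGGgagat
Hdac4: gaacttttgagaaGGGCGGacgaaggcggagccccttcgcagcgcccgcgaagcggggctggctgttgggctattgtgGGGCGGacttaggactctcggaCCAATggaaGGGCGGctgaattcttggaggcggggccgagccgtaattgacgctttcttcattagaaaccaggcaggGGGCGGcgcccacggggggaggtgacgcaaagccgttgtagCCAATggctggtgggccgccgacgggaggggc
Hdac2: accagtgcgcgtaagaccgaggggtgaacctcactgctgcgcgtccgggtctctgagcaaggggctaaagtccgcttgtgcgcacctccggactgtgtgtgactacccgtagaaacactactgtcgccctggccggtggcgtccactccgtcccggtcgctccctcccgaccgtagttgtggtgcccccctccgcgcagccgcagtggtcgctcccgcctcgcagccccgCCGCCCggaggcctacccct
The Hdac4 and Hdac6 windows each held 4 GC boxes and 2 CCAAT boxes. Among members not called, the Hdac5 and Hdac8 windows also held 2 CCAAT boxes, with 1 and 0 GC boxes. Those of Hdac8 shared 2 bases. The Hdac11 window held 1 GC box and 1 CCAAT box. The RefSeq starts of Hdac8 and Hdac11 lay 201 and 150 bases downstream of the table's start. Their windows therefore overlap exons of their own genes. Of 32851 RefSeq windows of the same length, 32.7% held a GC box and 4.09% held at least 4, while 33.8% held a CCAAT box and 10.1% at least 2. The Hdac7 window at the start used in the table held none of the 6 motifs. Hdac7 has 3 further RefSeq windows 12735 to 29639 bases downstream, of which 1 held a GC box, 2 an ETS core (12.0% of all windows) and 1 a nuclear receptor site (14%). The Hdac2 window held 1 GC box. GC content was 56.4% for the Hdac7 window shown, 61.2% for Hdac6, 65.2% for Hdac4 and 68.8% for Hdac2, against a median of 52.4% over all windows. The 3 further Hdac7 windows had 74%, 62% and 61.2% GC. At the other end, the Hdac9 window at the table's start had 43.6% GC, 2 CpG dinucleotides, 1 AP-1 site (6.75% of windows) and 1 nuclear receptor site. E-boxes, in 6.02% of all windows, were in none of the 12 member windows. Entries were found for 8 of the 10 members, not for Hdac1 and Hdac10. A match describes letters in these windows, not binding.

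Hdac7, a class IIa enzyme studied in blood vessel integrity and thymocyte selection, had the smallest adjusted p of the members. Its level was 111, 109, 107 and 99.8 CPM in EV replicates 1 to 4 and 133, 128, 129 and 125 CPM in KO replicates 1 to 4. All 4 KO libraries lay above all 4 EV libraries. The means were 107 ± 4.75 and 129 ± 3.34 CPM (SD, n = 4 each). It rose by 20.7% (95% interval 12.8 to 29.1%), a log2 fold change of 0.27 (adjusted p = 0.00022 in edgeR, SE 0.0465, exact two-sided permutation p = 0.0286, the smallest that 4 against 4 allows). Without KO replicate 1 the log2 fold change was 0.26 (edgeR adjusted p = 0.00178). The gene lies on the minus strand of chromosome 15 (mm10, 97792664 to 97844502). It shares 29 exonic bases, 0.43% of its exons, with Slc48a1 on the opposite strand, which was at 304 CPM when scaled by library totals alone.

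Hdac6, the tubulin deacetylase of class IIb, was at 39.7, 40.7, 44.6 and 42.2 CPM in EV and at 50.2, 50.9, 47.8 and 47.6 CPM in KO. Again no EV library reached the lowest KO library. The means of 41.8 ± 2.11 and 49.1 ± 1.69 CPM (SD, n = 4 each) gave a rise of 17.5% (95% interval 8.16 to 27.6%). On the log2 scale this was 0.23 (adjusted p = 0.00496 in edgeR, SE 0.0568, exact permutation p = 0.0286), and 0.22 without KO replicate 1 (edgeR adjusted p = 0.0194). The gene lies on the X chromosome (mm10, 7930120 to 7947889, minus strand) and no annotated gene overlaps it in GENCODE M21.

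Hdac4, the class IIa enzyme known for repressing MEF2 in muscle and cartilage, was at 37.9, 40.0, 40.5 and 36.7 CPM in EV and 43.4, 47.0, 42.3 and 44.4 CPM in KO. The lowest KO library, replicate 3, was above the highest EV library, replicate 3. The means were 38.8 ± 1.81 and 44.3 ± 2.01 CPM (SD, n = 4 each), a rise of 14.1% (95% interval 4.75 to 24.3%) with a log2 fold change of 0.19 (adjusted p = 0.0224 in edgeR, SE 0.0588, exact permutation p = 0.0286). This call was the weakest of the 3. It was lost without EV replicate 1 (edgeR adjusted p = 0.0522), KO replicate 2 (0.0650) or KO replicate 4 (0.0522), without KO replicates 2 and 3 together (0.111), with library totals in place of TMM scaling (log2 fold change 0.14, adjusted p = 0.0914) and on the log2(FPKM + 1) scale in limma (0.12, adjusted p = 0.156). Without KO replicate 1 it kept its call (0.20, edgeR adjusted p = 0.0403). Hdac4 lies on chromosome 1 (mm10, 91928779 to 92180341, minus strand), and the noncoding gene Gm26720, which shares 22.4% of its exonic bases on the opposite strand, had 0 counts in these libraries. GENCODE M21 of the same build extends Hdac4 to 92195699, upstream of the window shown for it.

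**Figure D1:**
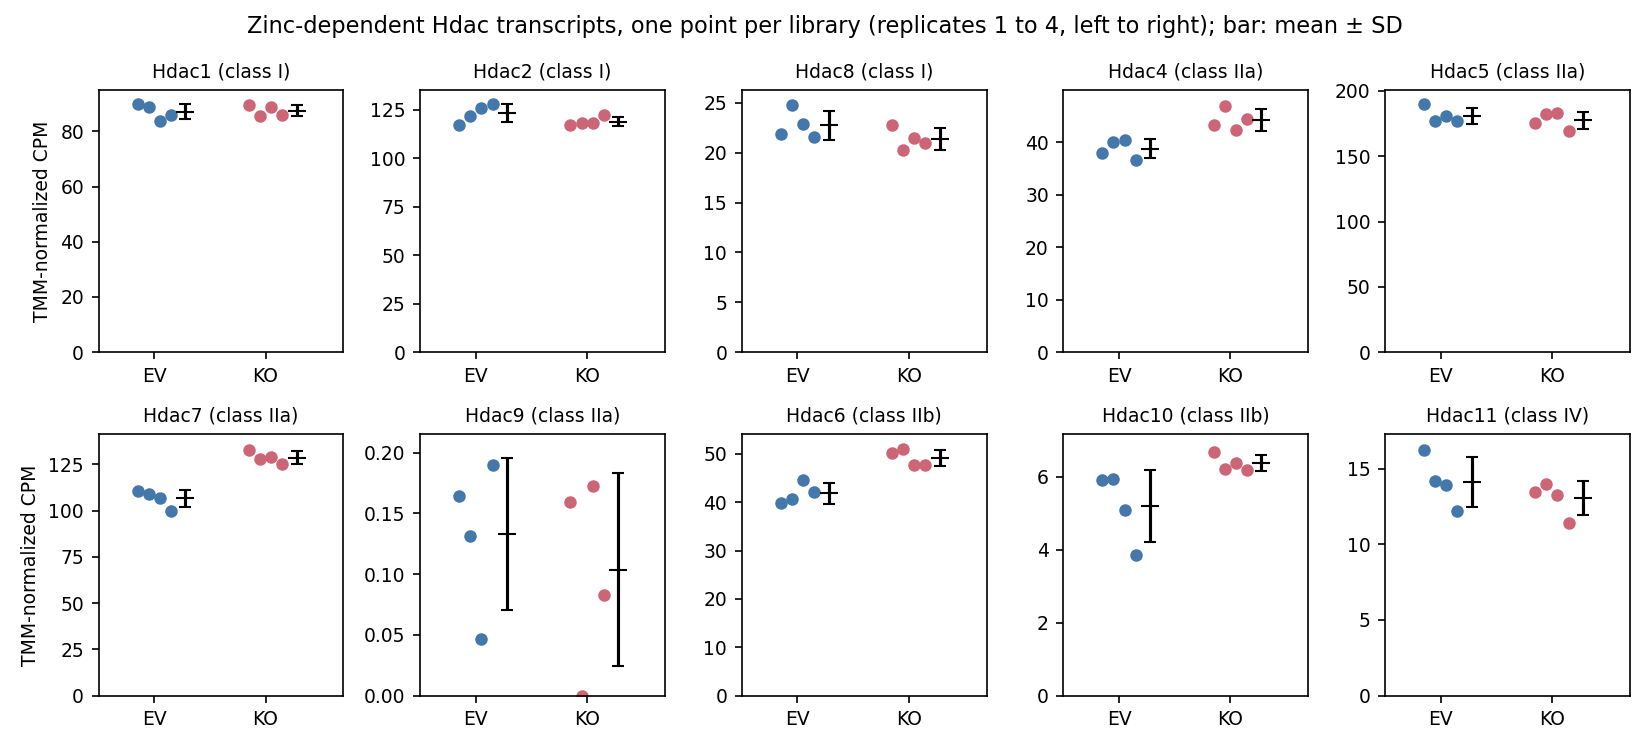
Each panel plots 1 gene, with TMM-normalized CPM on the y axis, 1 point per library and the bar giving mean ± SD of the 4 EV or 4 KO libraries. The 4 KO points of Hdac4, Hdac6, Hdac7 and Hdac10 lie above the 4 EV points, while the points of the other members overlap.

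Hdac10, the other class IIb enzyme, was at 5.92, 5.94, 5.09 and 3.84 CPM in EV and 6.69, 6.22, 6.38 and 6.19 CPM in KO. The groups did not overlap in CPM, yet EV replicate 4 lay well under the other EV libraries, and in FPKM the groups did overlap. Its log2 fold change of 0.29 (95% interval 0.0031 to 0.58, SE 0.138) did not pass (edgeR adjusted p = 0.132, exact permutation p = 0.0286), and without EV replicate 4 it was 0.17. With 81 to 149 counts a library, its interval was the widest of the 9. Counting Hdac10, 4 of the 9 tested members had groups that did not overlap, all with KO higher, against 12.6% of all tested genes higher in KO without overlap and 26.5% in either direction. The direction of these 4 is set by the same contrast and is no separate support.

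The remaining class IIa enzymes did not pass the test. Hdac5, the most abundant class IIa transcript, was at 190, 177, 181 and 177 CPM in EV and 175, 182, 183 and 169 CPM in KO. EV replicate 1 was the highest library and KO replicate 4 the lowest, and the groups overlapped. Its log2 fold change was -0.028 (95% interval -0.12 to 0.065, edgeR adjusted p = 0.686), so a difference as large as that of Hdac7 lies outside the interval. Hdac9 had 3, 3, 1 and 4 counts in EV and 3, 0, 4 and 2 in KO, or 20 in all, and was not testable at this depth. A fit without a filter on low counts gave it a log2 fold change of -0.34 with an SE of 0.932 (edgeR adjusted p = 0.850). The table's model of Hdac9 spans 34371503 to 34528889 of chromosome 12, while GENCODE M21 of the same build extends it from 34047580 to 34917095, so transcripts from outside the table's span are not analysed here.

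Class I members did not pass the test either. Hdac1 was at 90.0, 88.7, 83.8 and 86.1 CPM in EV and 89.6, 85.5, 88.9 and 86.0 CPM in KO, with a log2 fold change of 0.0058 (95% interval -0.092 to 0.10, edgeR adjusted p = 0.941). Hdac2 was at 117, 122, 126 and 128 CPM in EV and 117, 118, 118 and 122 CPM in KO, where the groups also overlapped (log2 fold change -0.051, 95% interval -0.14 to 0.043, edgeR adjusted p = 0.442). Hdac8 was at 21.9, 24.8, 22.9 and 21.5 CPM in EV and 22.8, 20.3, 21.5 and 21.0 CPM in KO (log2 fold change -0.093, 95% interval -0.25 to 0.060, edgeR adjusted p = 0.383). The upper ends of these intervals allow rises of at most 7.42% for Hdac1, 3.03% for Hdac2 and 4.26% for Hdac8. Each is smaller than the 14.1% measured for Hdac4, but the interval of Hdac4 begins at 4.75% and overlaps that of Hdac1. Each interval covers its own gene only. The sign for Hdac1 changed with scaling, to -0.045 with library totals alone. The class IV member Hdac11 was at 16.2, 14.2, 13.9 and 12.2 CPM in EV and 13.5, 14.01, 13.3 and 11.4 CPM in KO, and replicate 4 was the lowest library of each group. Its log2 fold change was -0.12 (95% interval -0.32 to 0.093, edgeR adjusted p = 0.429). Without KO replicate 1, the members that did not pass had log2 fold changes of -0.0047 for Hdac1, -0.043 for Hdac2, -0.021 for Hdac5, -0.12 for Hdac8, 0.27 for Hdac10 and -0.13 for Hdac11, with edgeR adjusted p-values of at least 0.233.

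**Figure D2:**
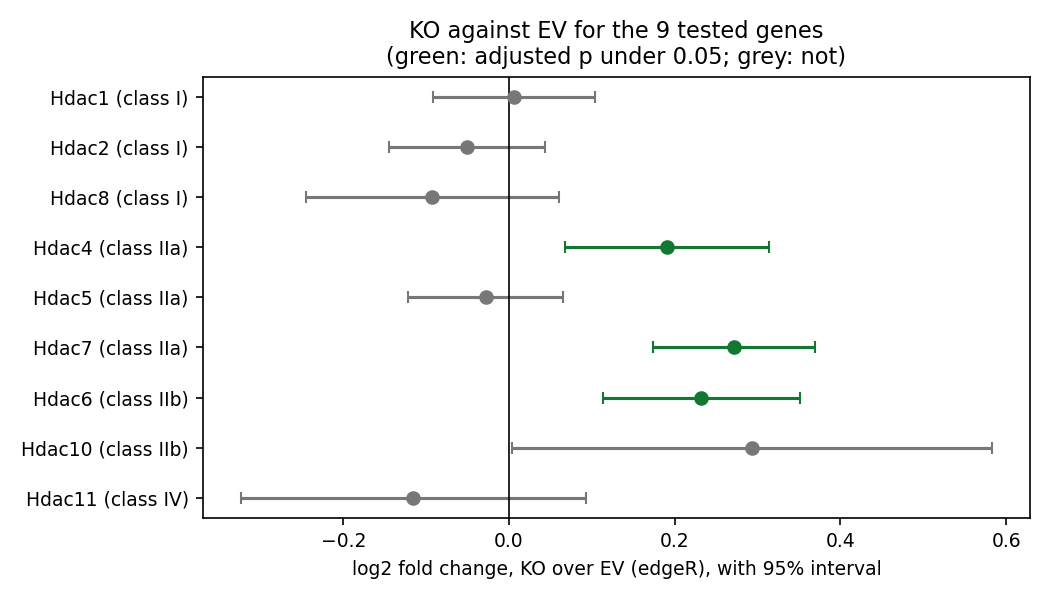
The log2 fold change of KO over EV from edgeR is plotted for the 9 tested members with its 95% interval, and the vertical line marks 0. Hdac7 at 0.27, Hdac6 at 0.23 and Hdac4 at 0.19 passed the adjusted threshold, and the wide interval of Hdac10 begins just above 0.

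Levels of different genes were compared per length, as FPKM. Averaged over the 8 libraries, Hdac1 was highest at 42.8 FPKM, followed by Hdac2 at 37.2, Hdac5 at 33.2 and Hdac7 at 27.8. Then came Hdac8 at 9.74, Hdac6 at 9.01, Hdac11 at 5.12, Hdac4 at 5.12 and Hdac10 at 1.99, and Hdac9 was last at 0.0268 FPKM. The ranges over libraries overlapped for 4 neighbouring pairs, Hdac2 with Hdac5, Hdac5 with Hdac7, Hdac8 with Hdac6 and Hdac11 with Hdac4, and for 2 pairs without KO replicate 1. The other neighbours were separated in all 8 libraries. The order rests on the gene lengths in the table. With GENCODE M21 exonic lengths, an alternative added after seeing the data, Hdac2 (27.1) came before Hdac1 (25.3), with overlapping ranges, and Hdac6 (7.80) before Hdac8 (4.56), and the same 4 genes, Hdac1, Hdac2, Hdac5 and Hdac7, stayed the most abundant.

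**Figure D3:**
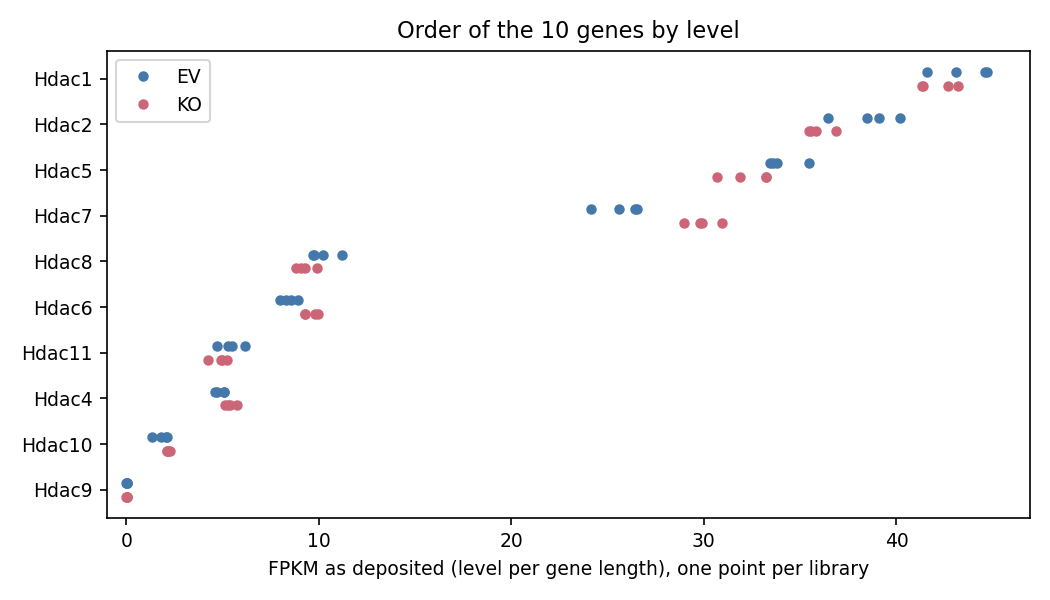
Deposited FPKM, a level per gene length, is on the x axis with 1 point per library, and the 10 members are ordered by their mean with the table's gene lengths. Hdac1, Hdac2, Hdac5 and Hdac7 lie between 24.1 and 44.7 FPKM, and the rest reach at most 11.2 FPKM.

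Summed over members, FPKM was 173 ± 2.50 in EV and 171 ± 2.51 in KO (SD, n = 4 each). With the libraries scaled by TMM, as for the fold changes, it was 169.6 ± 2.42 in EV and 174.5 ± 2.33 in KO, so the direction of the difference in the summed level depended on the scaling. Class I made up 52.3 to 54.8% of the sum in EV and 49.98 to 52.0% in KO, without overlap, with means of 53.5 ± 1.07 and 50.9 ± 0.819% (SD, n = 4 each). Class IIa held 37.4 ± 0.745% in EV and 39.4 ± 0.535% in KO, a difference of 1.95 percentage points, which stayed between 1.67 and 2.26 points with any 1 library left out. Class IIb went from 5.95 ± 0.215 to 6.85 ± 0.172%, and class IV from 3.14 ± 0.325 to 2.82 ± 0.216%. Shares within a library do not depend on how libraries are scaled, though they do depend on the gene lengths used: with GENCODE M21 exonic lengths, an alternative added after seeing the data, the class IIa difference was 1.78 points. They restate the gene-level differences above, given here with no test.

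**Figure D4:**
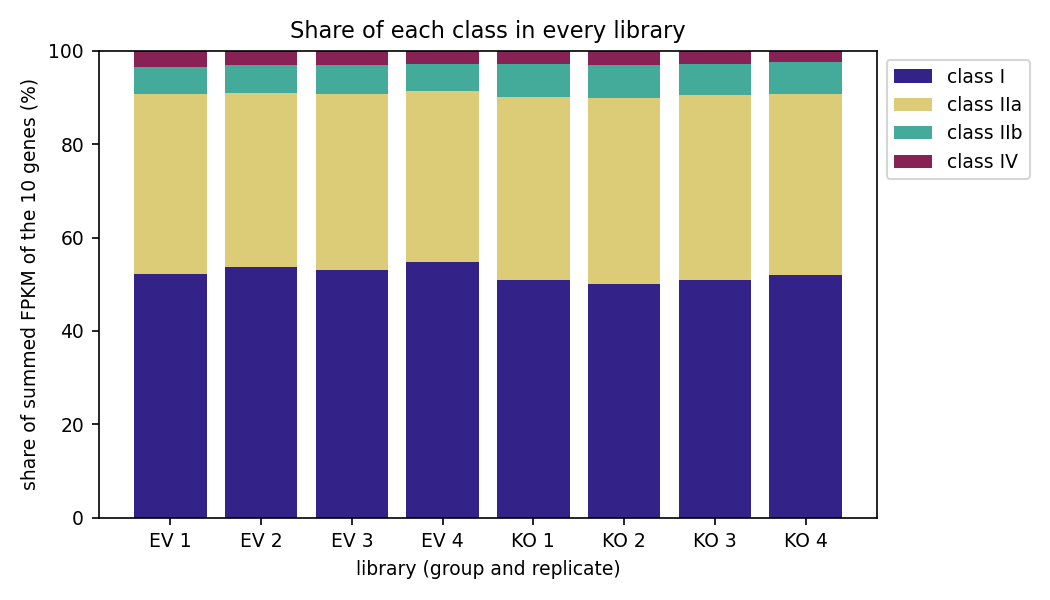
Stacked bars show the share of each class, in percent, in the summed FPKM of the 10 members in each library. Class I holds 52.3 to 54.8% in EV and 49.98 to 52.0% in KO. Classes IIa and IIb have higher mean shares in KO, and class IV has a lower one.

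Among genes with a mean of at least 5 CPM, the profile most like that of Hdac7 over the 8 libraries was that of Socs3, a feedback inhibitor of cytokine signalling, with Pearson r = 0.991. Next came Cttn (0.987) and Plekhb2 (0.985). Likeness was computed on log2 CPM over 10208 genes, and the 8 points share the split into EV and KO.

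Partner genes of class I enzymes were counted by complex. For these and the lists that follow, the share of all tested genes called was 26.0%, with 12.6% higher and 13.4% lower in KO. Of 16 tested Sin3 complex genes, 2 rose and 5 fell in KO, among them Fam60a (52.0 ± 3.13 to 43.7 ± 1.09 CPM, edgeR adjusted p = 0.00273), the histone chaperone Rbbp7 (434 ± 3.08 to 389 ± 11.3 CPM, 0.00719) and Arid4b (83.5 ± 9.72 to 70.5 ± 2.52 CPM, 0.0104). The number that fell was 3 when any of EV replicate 4, KO replicate 1 and KO replicate 2 was left out, and the number that rose was 1 without KO replicate 3 or with library totals alone. In the NuRD list, which leaves out Rbbp4 and Rbbp7 because they were counted under Sin3, 1 of 11 rose and 0 fell. The riser was Chd3, a chromatin remodelling ATPase, at 205, 204, 194 and 209 CPM in EV and 260, 304, 244 and 263 CPM in KO, with a log2 fold change of 0.40 (adjusted p = 2.76e-05 in edgeR, SE 0.0563). At an unadjusted p under 0.05, 2 NuRD genes were lower, and DESeq2 and limma-voom called 0 lower, but without EV replicate 2, 1 NuRD gene fell, and 2 did with library totals alone. Rbbp7, a subunit of both complexes, fell as given above, and Rbbp4 did not pass (301 ± 8.47 and 307 ± 5.46 CPM, edgeR adjusted p = 0.635). In CoREST, Kdm1a, the lysine demethylase, rose (116 ± 3.43 to 128 ± 2.17 CPM, edgeR adjusted p = 0.0233) and Rcor1, its scaffold, fell (81.4 ± 1.15 to 73.2 ± 1.85 CPM, 0.0205) among 9 tested. Kdm1a lost its call in 9 of 19 alternatives, among them library totals alone and no filter on low counts. Others of the 9 left out EV replicate 3, KO replicate 1 or KO replicate 4. Rcor1 lost its call without KO replicate 1, while 2 CoREST genes fell without EV replicate 1. Of 3 tested MiDAC genes 0 passed in edgeR, DESeq2 or limma-voom, with 0 at an unadjusted p under 0.05, Elmsan1 being at 37.8 ± 0.526 and 38.0 ± 1.75 CPM (edgeR adjusted p = 0.927).

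Class IIa enzymes recruit the NCoR complex, and of the 4 of its subunits reported here, Tbl1x and Tbl1xr1 rose while Ncor1 (235 ± 19.6 and 218 ± 17.0 CPM, edgeR adjusted p = 0.209) and Gps2 (20.9 ± 1.604 and 19.4 ± 0.576 CPM, 0.335) did not pass. Tbl1x went from 296 ± 17.1 to 345 ± 11.6 CPM (log2 fold change 0.22, edgeR adjusted p = 0.00173) and Tbl1xr1 from 50.5 ± 4.54 to 58.1 ± 3.05 CPM (0.0260). The groups of Tbl1x did not overlap, while those of Tbl1xr1 did. Tbl1x passed in each fit with 1 library left out, and Tbl1xr1 lost its call with library totals alone and when EV replicate 1, 2 or 3 or KO replicate 1 or 2 was left out. Of 3 tested MEF2 factors, Mef2a, a DNA-binding partner of class IIa enzymes, fell from 146, 147, 147 and 161 CPM in EV to 121, 128, 123 and 126 CPM in KO (log2 fold change -0.27, adjusted p = 0.000178 in edgeR, SE 0.0461), in each fit with 1 library left out.

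Published targets of MEF2 and class IIa enzymes were listed with earlier results of these data known, so their counts are no independent evidence. Of the 5 tested, 3 rose and 1 fell, and these counts were the same in every fit with 1 library left out. Mmp10, a stromelysin reported as a target of Hdac7 in endothelial cells, was at 11.2, 14.2, 12.5 and 12.7 CPM in EV and 32.9, 29.9, 35.2 and 29.8 CPM in KO. Every KO library lay above every EV library, and the log2 fold change was 1.33 (adjusted p = 9.62e-10 in edgeR, SE 0.0843). Klf2, a transcription factor of quiescent endothelium, went from 8.72 ± 1.31 to 14.7 ± 1.59 CPM (log2 fold change 0.76, edgeR adjusted p = 5.65e-05). Nr4a1, an orphan nuclear receptor, went from 14.2 ± 0.703 to 18.4 ± 1.5998 CPM (0.37, edgeR adjusted p = 0.00276). Ppargc1a, a coactivator of mitochondrial genes, outside the naming rule and picked after its value was seen, fell (log2 fold change -0.45, edgeR adjusted p = 0.00449).

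Kinases that send class IIa enzymes out of the nucleus gave 1 rise and 4 falls among 14 tested. Sik2 fell from 66.2 ± 2.22 to 51.3 ± 4.19 CPM (log2 fold change -0.37, adjusted p = 0.000112 in edgeR, SE 0.0595). Camk4, a calcium-dependent kinase, was at 10.7, 12.0, 13.4 and 16.1 CPM in EV and at 9.39, 7.10, 6.47 and 7.19 CPM in KO (log2 fold change -0.80, adjusted p = 0.000161 in edgeR, SE 0.133). Its mean FPKM was 1.08 in EV and 0.600 in KO, so the pseudocount weighs on its fold change in limma. That was -0.37 on log2(FPKM + 1) and -0.75 on log2(FPKM + 0.1). Mark3 fell from 78.6 ± 1.96 to 67.3 ± 1.999 CPM (edgeR adjusted p = 0.00181). Without KO replicate 1, 2 kinases rose. Among 6 tested 14-3-3 genes, the docking proteins, Ywhab (290 ± 8.02 to 316 ± 9.18 CPM, edgeR adjusted p = 0.0346) and Ywhah (144 ± 5.80 to 159 ± 8.13 CPM, 0.0392) rose. Those calls were frail, since 1 was made when EV replicate 1, 3 or 4 was left out. With library totals alone, without a filter on low counts, or when EV replicate 2 or KO replicate 1, 3 or 4 was left out, 0 were made.

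For class IIb, 2 of 12 tested Hdac6 substrates and partners rose and 1 fell. Sqstm1, a ubiquitin-binding autophagy receptor, was at 782, 740, 744 and 686 CPM in EV and 918, 922, 894 and 849 CPM in KO (log2 fold change 0.28, edgeR adjusted p = 0.00019). Cttn, cortactin, an actin-binding substrate of Hdac6, went from 281 ± 14.8 to 336 ± 9.56 CPM (0.25, edgeR adjusted p = 0.000381). Tuba4a, an alpha-tubulin, fell from 46.9 ± 2.12 to 37.8 ± 5.08 CPM (edgeR adjusted p = 0.00669), but it shares 37.3% of its exonic bases with Stk16 on the opposite strand and its reads may be shared with other tubulin genes. Without KO replicate 2, and with the replicate number as a block, 4 of the 12 rose, and with library totals alone 2 fell. Polyamine genes, tied to Hdac10, gave 1 rise and 1 fall among 10 tested: Sat1, the acetyltransferase that makes acetylated polyamines, rose from 197 ± 17.4 to 250 ± 9.44 CPM (log2 fold change 0.34, edgeR adjusted p = 0.000149), and Amd1, which supplies aminopropyl groups, fell from 105 ± 4.14 to 93.7 ± 3.13 CPM (0.0141). Amd1 was lost without KO replicate 1, and 2 polyamine genes rose without EV replicate 1.

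Cohesin genes, the setting in which Hdac8 acts, gave 1 rise and 4 falls among 13 tested. Esco2, the acetyltransferase that modifies Smc3 in S phase and so opposes Hdac8, was at 8.49, 10.1, 10.4 and 10.9 CPM in EV and 6.05, 4.90, 5.22 and 5.74 CPM in KO (log2 fold change -0.87, adjusted p = 1.51e-05 in edgeR, SE 0.116). Cdca5, sororin, which protects cohesin, fell from 14.6 ± 1.48 to 10.7 ± 1.23 CPM (-0.44, edgeR adjusted p = 0.00346), and Pds5b from 91.1 ± 6.50 to 74.9 ± 4.05 CPM (-0.28, edgeR adjusted p = 0.00104). Without EV replicate 1, or with library totals alone, 7 fell and 0 rose, and 0 rose also without EV replicate 2 or KO replicate 2. Over all lists, each gene counted once, 35 of 107 tested partner genes (32.7%) passed, 17 higher and 18 lower, with a median log2 fold change of -0.015, beside 26.0% and 0.0050 for all tested genes. Without KO replicates 2 and 3, the libraries with the highest liver gene sums, 19 passed. Arid4b, Rcor1, Kdm1a, Tbl1xr1, Ywhab, Ywhah, Amd1 and Cdca5 were among those that did not. Fewer samples enter that fit, and its calls over all tested genes also went from 3324 to 1974. The part of liver RNA in these losses was not tested.

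**Figure D5:**
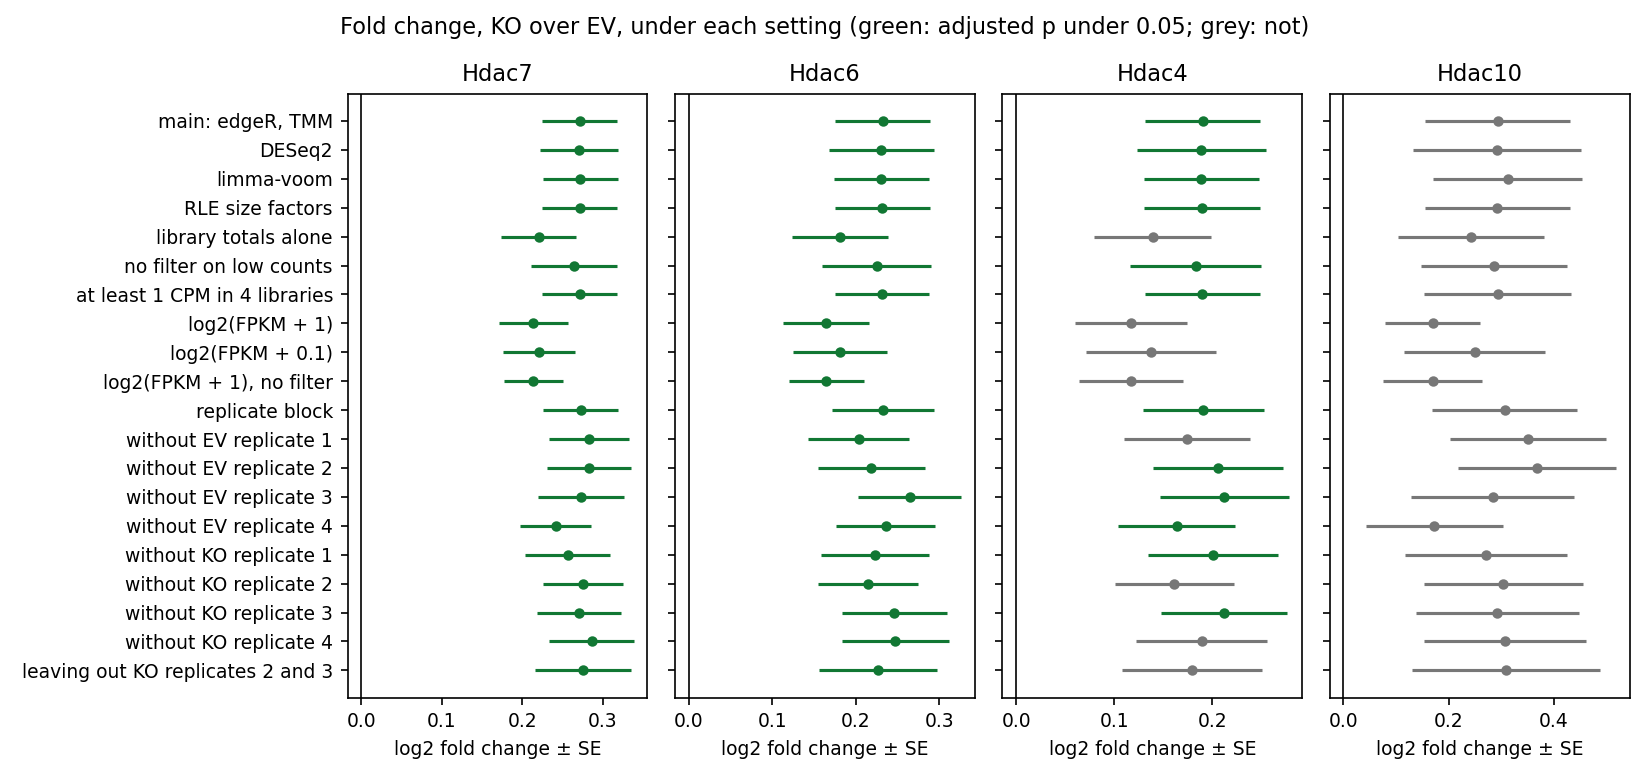
Points give the log2 fold change of KO over EV, with SE, for members under each processing setting, green where the adjusted p was under 0.05 and grey where it was not. Hdac7 and Hdac6 are green in every setting, while Hdac4 is grey in 8 of the 19 alternatives.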

How the data were processed

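Messenger RNA was sequenced in 4 EV and 4 KO libraries, and the authors deposited a table of unnormalized counts and one of FPKM. Per the submitters' processing notes, the build was mm10 and the software DESeq 1.6.3, while the series text names DESeq2 with an adjusted p of 0.05. Not given in the sources used here are aligner, counting tool, annotation release and strand, so reads of overlapping genes on opposite strands cannot be told apart. The deposited FPKM values equal counts over length and library total for 100% of nonzero values (tolerance 1e-06) and carry no composition correction. Libraries were grouped by title.

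Counts were tested with edgeR 4.0.16 (R 4.3.3): TMM, filterByExpr (minimum count 10, minimum total 15), quasi-likelihood F test, two-sided, Benjamini-Hochberg adjustment. The SE is the log2 fold change over the square root of F, and CPM are TMM-normalized, except that of Slc48a1. The test was also run on simulated counts with fewer changed genes than were called here, which does not check its error rate in these data. Single members also had an exact permutation test over 70 arrangements. Pairs of replicates differed by more than counts alone give (chi-square over its degrees of freedom 4.01 to 13.2). Alternatives were DESeq2 1.42.0, limma-voom (limma 3.58.1), other scalings and filters, limma on log2 FPKM with pseudocounts of 1 and 0.1 (FPKM of at least 0.5 in 4 libraries, or no filter), a replicate block, libraries left out and, added after seeing the data, GENCODE exonic lengths for levels. Context lists were named by up to 3 genes with the smallest adjusted p among those past the threshold, or the most abundant where none passed, and 3 genes by likeness to Hdac7. A gene that this rule takes is not reported here. The members and lists were chosen with earlier results of these data known. GENCODE M21 gave gene overlaps. The member Hdac11 shares 15.4% of its exonic bases with Gm44002 on the opposite strand. Beside those given, Fam60a, Rbbp7, Arid4b, Mef2a, Sik2, Camk4 and Sqstm1 also share exonic bases with a gene on the opposite strand. Promoters came from RefSeq.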

Additional observations from a re-analysis of the deposited data

Results flagged for a closer look

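Among 76 groups of 4 libraries (38 named genes in EV and in KO), 2 held a library far from the others, where chance gives about 1 in 20. Hdac2 in KO replicate 4 was at 122.3 CPM, while the other KO libraries lay at 117 to 118 CPM. Mef2a in EV replicate 4 was at 161.3 CPM, while the other EV libraries lay at 146 to 147 CPM.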

How the results depend on the processing

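Between 2 and 3 members were called higher, and 0 lower, under each of 19 alternatives. Hdac7 (log2 fold change 0.21 to 0.29, adjusted p 5.77e-07 to 0.00659) and Hdac6 (0.17 to 0.26, 0.00211 to 0.0478) passed in all of them, and Hdac10 (0.17 to 0.37, 0.0905 to 0.372) in none. Hdac4 missed the threshold with library totals alone (0.14), on log2(FPKM + 1) with and without the filter (0.12 each, adjusted p 0.156 and 0.210), on log2(FPKM + 0.1) (0.14, 0.152), and without KO replicates 2 and 3 (0.18). With 1 library left out it ran from 0.16 to 0.21. Hdac1, near 0, turned to -0.045 with library totals alone, -0.0013 without a filter on low counts, -0.044 on log2(FPKM + 1) with or without the filter and -0.045 on log2(FPKM + 0.1), and ran from -0.013 to 0.017 with 1 library left out. Hdac3 ran from -0.023 to 0.032 with 1 library left out and was 0.024 without KO replicates 2 and 3. Elmsan1 turned to -0.042 with library totals alone, -0.036 on log2(FPKM + 1) with or without the filter, -0.043 on log2(FPKM + 0.1) and -0.010 without KO replicates 2 and 3, and ran from -0.014 to 0.035 with 1 library left out. The cause of these changes was not tested. Whether the replicate numbers pair the libraries was not settled. Correlations of deviations between libraries of the same number were -0.039 to 0.143, and 6 of 8 libraries were closest to their own number. For numbers 1, 3 and 4 this held in both groups, and for number 2 in neither. The replicate block gave 3737 called genes, against 3324 without it, and changed no member's call (Hdac7 adjusted p 3.48e-05, Hdac4 0.0185). Over all genes, 3324 calls became 1974 (880 higher, 1094 lower) without KO replicates 2 and 3, where fewer samples enter, and 2621 to 3359 with 1 library left out. The number higher, 1613, was 1039 with library totals alone, 896 on log2(FPKM + 1), 897 on log2(FPKM + 0.1) and 766 on log2(FPKM + 1) without the filter, and 1239 to 1584 with 1 library left out. The share of calls that were higher was 48.5%, and 30.1% with library totals alone, where the median log2 fold change of all genes went from 0.0050 to -0.046, a shift of -0.051. Calls over the partner lists went from 35 to 19 without KO replicates 2 and 3. The summed FPKM differed by -1.11 (KO minus EV), by 4.95 with TMM scaling, and by -0.49 with GENCODE exonic lengths. Overlapping neighbours per length numbered 2 to 4 with 1 library left out. Hdac9, at 0 to 4 counts a library, was below the depth needed for a test, and Hdac10 had 81 to 149 counts.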
